A study of Rattus norvegicus with 8 samples.

Results

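The renal cortex of rats with ethylene glycol-induced nephrolithiasis was compared with the renal cortex of control rats, as the difference between 1 array and 1 array for every measured transcript. These are 2 of the 8 arrays of the study, which profiled the cortex and the outer medulla under control conditions, in the stone model, with phlorizin, and in the stone model with phlorizin. All rats were male Sprague-Dawley rats, 10 weeks old, on a pelleted diet with free access to water. Stones were induced with ethylene glycol together with alfacalcidol over 2 weeks. This combination is called EG below, so its 2 agents cannot be told apart. Phlorizin, which blocks the sodium-glucose cotransporters SGLT1 and SGLT2, was the study's test agent, and the control and EG arrays carried none of it. The sources used here do not give the number of animals behind an array. There was no replicate on either side, so no p-value or standard deviation can be given and every difference below describes 2 arrays.

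Ethylene glycol is oxidised in the liver to glycolate, glyoxylate and oxalate, and oxalate is filtered and secreted into the tubule, where it precipitates with calcium. Alfacalcidol is converted to active vitamin D, which raises intestinal calcium uptake and so the calcium load of the urine. The cortex holds the glomeruli, the convoluted proximal tubule that reclaims sugar, amino acids and phosphate and secretes organic ions, and the cortical parts of the distal nephron that adjust acid, potassium and calcium.

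The values are log2 RMA values, so a difference of 1 is a 2-fold difference. On each array 23 background probes were averaged, which gave 5.68 for the control and 5.53 for the EG cortex. A gene at or below that mean was not above background, and its difference is given as "at least", counted from the array's background mean. The 1153 control probe sets named as negative averaged 7.58 on the control and 7.70 on the EG array, well above that mean. The words "at least" therefore hold only against the background mean. Counts over gene groups use the values as deposited, and counting from the background mean takes 1 gene each from 5 lists at the threshold of 1. The arrays topped out at 19.6 (control) and 19.7 (EG), and genes close to that ceiling may differ by more than the values show. The zone labels were compared with Slc5a2, which set the control zones apart, and with Umod, which did not. Slc5a2, the glucose cotransporter of the convoluted proximal tubule, read 16.46 in the control cortex against 6.02 in the control outer medulla, and it read 15.73 in the EG cortex. Umod, the uromodulin gene of the thick ascending limb, was high in both zones of control kidneys, with 17.33 for cortex and 18.85 for outer medulla. In bulk tissue, fewer cells of a type and less RNA per cell cannot be told apart.

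Of 13170 probe sets that passed the filter on low values, 1272 were at least 1 higher in EG cortex (9.66%) and 1671 were at least 1 lower (12.7%). At least 2 higher were 335 (2.54%), and 368 were at least 2 lower (2.79%). Between the cortex arrays of phlorizin and control, which share the control array with this comparison, only 153 probe sets lay at least 1 apart (1.16%). Among the 9315 tested genes with a symbol, 10.3% were higher by 1 or more, 13.6% were lower by 1 or more, and the median difference was -0.12. These 3 values are the background for every gene group below. Centring both arrays on their medians moved all differences up by 0.116 and gave 1499 higher and 1377 lower probe sets, so which direction held more genes depended on the scaling. The 733 control probe sets named as negative that passed the same filter were at least 1 apart in 19.0% of cases, against 15.8% between phlorizin and control. For the tested transcripts these shares were 22.3% and 1.16%. Poly-A spike-in probe sets averaged 8.01 on the control array and 6.42 on the EG array, against 8.23 on the phlorizin array and 7.67 on the array of EG with phlorizin. The part of these technical values in the gene differences was not tested.

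**Figure D1:**
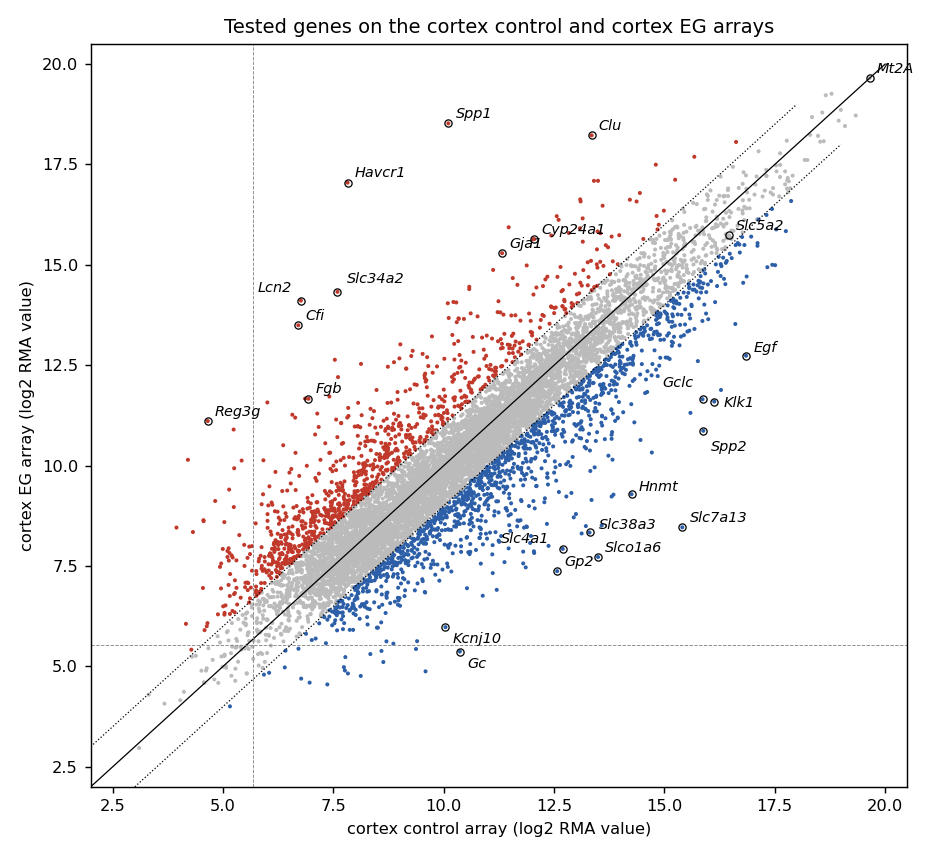
Each point is 1 of 9315 tested genes, with its log2 RMA value on the cortex control array (x axis) and on the cortex EG array (y axis). Red and blue points are higher and lower in EG by at least 1, dotted lines mark a difference of 1, and dashed lines mark the mean of the background probes. Of the labelled genes, Havcr1, Spp1, Lcn2, Cfi and Slc34a2 lie farthest above the diagonal, and Slc7a13, Slco1a6 and Gp2 farthest below it.

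Symbols starting LOC, RGD, AABR, Olr, MGC or AC with a digit were passed over when genes were ranked by difference or control value. The same holds for counts of genes opposite between zones. The largest difference in an Olr gene so passed over was 4.60. Of the other genes, the 30 lowest relative to control included transporters, enzymes and secreted proteins. In what follows, a pair of values joined by "to" is the control and the EG cortex value on the log2 scale, and a value in brackets after it is their difference. Slc7a13, a transporter of acidic amino acids and cystine in the straight proximal tubule, went from 15.40 to 8.46, a difference of -6.94 or 123-fold. Slco1a6, an organic anion transporter, went from 13.49 to 7.72, a difference of -5.77. Gp2, a membrane-anchored relative of uromodulin, went from 12.57 to 7.37 (-5.20). All 3 were far below control in EG cortex. Their EG values lay above the background mean of 5.53, but control probe sets named as negative averaged 7.70 on that array. Spp2, a secreted phosphoprotein, went from 15.88 to 10.87 (-5.01), and Hnmt, the enzyme that methylates and inactivates histamine, from 14.25 to 9.29 (-4.97). Rgn, which encodes the calcium-binding lactonase regucalcin, went from 13.12 to 8.31 (-4.81). Gc, the vitamin D-binding protein, read 10.36 in control and was at background in EG, so it was at least 28.6-fold lower. Hrg, the histidine-rich glycoprotein, went from 11.20 to 6.91 (-4.29), and Dnase1, a secreted nuclease, from 13.22 to 8.49 (-4.73).

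For 3 of these genes the difference between the arrays that carried phlorizin was much smaller. Slc7a13 read 16.37 with phlorizin and 15.23 with EG and phlorizin, a difference of -1.14. For Hnmt the values were 14.68 and 14.03, and for Spp2 16.23 and 15.41. So the EG array stood alone among the 4 cortex arrays for these 3 genes, which were singled out after their values were seen. Smaller differences with phlorizin were not particular to them. Of all 368 probe sets at least 2 lower in EG, 24.7% were at least 1 lower in that pair (median -0.65), where 1.55% of all tested probe sets were. Phlorizin and differences between single animals or arrays cannot be told apart here.

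On the higher side, the injury marker genes Havcr1 (7.82 to 17.05), Spp1 (10.10 to 18.52) and Lcn2 (6.76 to 14.11) led. Beyond these, Cfi, the complement factor I protease, read 6.70 in control and 13.49 in EG, a difference of 6.79 or 111-fold. Slc34a2, the sodium-phosphate cotransporter known from lung and intestine, went from 7.59 to 14.33 (6.74). Both were also higher in EG with phlorizin than with phlorizin alone, Cfi by 2.82 and Slc34a2 by 3.22. Reg3g, an antibacterial lectin, passed the filter only through EG arrays. It was at background in control and read 11.11 in EG, at least 43-fold higher. Serpina3n, an acute phase protease inhibitor, was likewise at background in control and read 10.90, at least 37.1-fold higher. Car3, a carbonic anhydrase best known from muscle and fat, went from 6.63 to 11.19, and Lrat, which esterifies retinol, from background to 9.93, at least 19-fold higher. Timd2, a ferritin receptor, went from 7.13 to 11.30 (4.16), and Cd276, an immune checkpoint ligand, from 10.09 to 14.04 (3.95). Plod2, which hydroxylates collagen lysines, went from 10.22 to 14.07 (3.86). Niban1, a stress-responsive gene, went from 8.12 to 12.53 (4.41), and Fblim1, an adaptor at cell-matrix contacts, from 5.91 to 10.13 (4.22).

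Further genes among the 30 lowest came from several families. Akr1c12l1, an aldo-keto reductase, went from 13.58 to 8.51 (-5.07), and Dhrs7l1, a short-chain dehydrogenase, from 15.59 to 11.31 (-4.28). Nat8f1, of the family that makes mercapturic acids, differed by -4.37. In the Akr family as a whole 9 of 14 members were at least 1 lower and 1 higher, with a median of -1.56. Slc7a12, a relative of Slc7a13, went from 11.80 to 7.56 (-4.24) and differed by -3.31 in the outer medulla. Tlr12, a toll-like receptor, went from 12.05 to 7.82 (-4.22), Prima1, the membrane anchor of acetylcholinesterase, from 10.88 to 6.76 (-4.12) and Ttc36 from 13.35 to 9.14 (-4.20). Among the genes with the highest control values, Kap, the androgen-regulated kidney protein of the proximal tubule, read 17.51 in control, 14.99 in EG, 17.66 with phlorizin and 17.54 with both. Mdh1, the cytosolic malate dehydrogenase, went from 17.44 to 16.39 (-1.05). Of the 200 genes with the highest control values, symbols passed over left out, 59 were at least 1 lower and 1 higher, with a median of -0.63. The control value is part of the difference, so this choice favours negative differences. Of the 197 tested probe sets whose mean over both arrays lay above 16, 22 were at least 1 lower and 6 higher, with a median of -0.14.

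**Figure D2:**
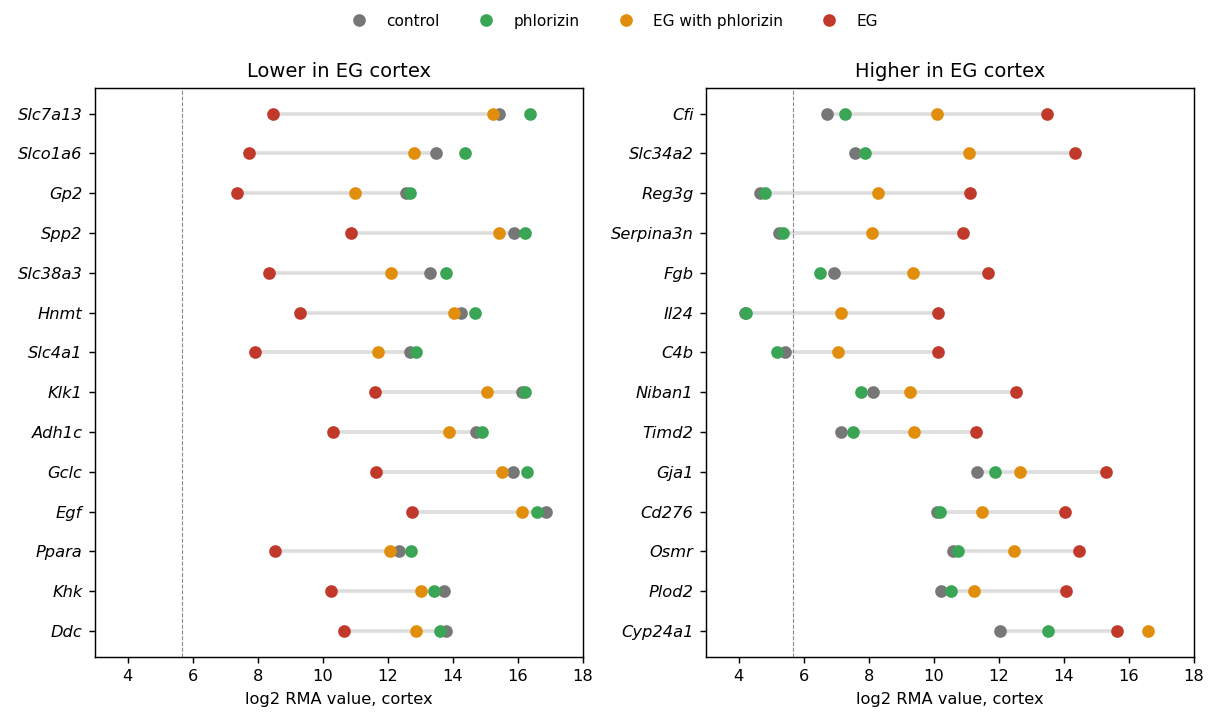
Log2 RMA values of 28 genes on the 4 cortex arrays, with 14 genes lower in EG on the left and 14 higher on the right. The dashed line marks the mean of the background probes on the control array, and the grey bar joins control and EG. For all genes shown on the left the EG point lies lowest, with EG plus phlorizin nearer to control than to EG, and on the right EG lies highest in all but Cyp24a1.

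Of 15 markers of the convoluted proximal tubule, 4 were at least 1 lower in EG and none at least 1 higher, with a median of -0.68. The median of the same markers was 0.79 in the outer medulla and -0.17 for EG with phlorizin minus phlorizin in the cortex. Slc6a19, the neutral amino acid transporter, differed by -3.24 (14.32 to 11.08), and Slc22a6, the organic anion exchanger OAT1, by -2.15 (16.86 to 14.71). By contrast Slc5a2, the target of phlorizin in this segment, differed by -0.73, and Slc2a2, the basolateral glucose transporter, by 0.62 in the opposite direction. Slc5a1, the glucose cotransporter of the late proximal tubule, read 7.90 and 7.10, a difference of -0.80. Sugar transport had 14 tested genes, of which 4 were at least 1 lower. The lower ones were Slc5a8, a lactate and short-chain monocarboxylate cotransporter (-2.76), Slc5a11, an inositol cotransporter (-2.00), Slc5a10, a mannose and fructose cotransporter (-1.84), and Slc2a5, the fructose transporter (-1.56). Slc2a3, a facilitative glucose transporter, was at background in control and read 6.33 in EG, so it was higher by at least 0.65, and no gene of the list was at least 1 higher when counted from background. Slc2a2 was singled out after its value was seen.

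Transporters of organic ions and amino acids were often lower. Of 15 organic ion and drug transporters, 11 were at least 1 lower, where 13.6% of all genes were, and 1 was higher (median -1.29). After Slco1a6 came Slc22a25 (-3.82), Slco4c1, which carries thyroid hormones and uraemic toxins (-3.77), Slc22a12, the urate transporter URAT1 (-2.92), and Slc22a2, the organic cation transporter OCT2 (-2.62). Abcb1b, a P-glycoprotein efflux pump, was the exception, going from 7.50 to 10.00. In the Slc22 family as a whole 10 of 13 members were at least 1 lower and none at least 1 higher, with a median of -2.15. Slc22a22, which takes up prostaglandins, went from 13.80 to 9.23 (-4.57). Members of the Slc22 and Slco families resemble each other in sequence, so probes may be shared and single members are uncertain. Of 20 amino acid and peptide transporters, 9 were at least 1 lower and 2 higher, with a median of -0.84. Slc38a3, the glutamine transporter that feeds ammonia production, went from 13.30 to 8.33 (-4.97), and Slc15a1, a peptide transporter of the brush border, from 10.82 to 8.20 (-2.62). Slc3a1, the heavy subunit that pairs with cystine transporters, differed by only -1.01 (17.13 to 16.13). Slc6a13, a transporter of GABA and taurine, went from 11.86 to 7.46 (-4.39).

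On the brush border, 8 of 13 genes were at least 1 lower and none higher (median -1.12). They included both meprin subunits, Mep1b (-3.15) and Mep1a (-2.18), and the alkaline phosphatase Alpl (-2.35). In protein uptake, 2 of 13 endocytosis genes were at least 1 lower, with a median of -0.41. Amn, which anchors cubilin in the membrane, went from 12.29 to 9.18 (-3.11), and Clcn5, the endosomal chloride-proton exchanger, from 13.59 to 11.91 (-1.68). The receptors themselves differed little, Lrp2 (megalin) by -0.41 and Cubn (cubilin) by 0.23. These 2 receptors were singled out after their values were seen.

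Enzymes of amino acid metabolism, which proximal tubule cells hold in quantity, came next. Of 29 tested genes of amino acid, serine and glycine metabolism 23 were at least 1 lower and none at least 1 higher, with a median of -1.65. In the outer medulla the median of the same genes was -0.06, and for EG with phlorizin minus phlorizin in the cortex it was -0.39. Ddc, which makes dopamine in the proximal tubule, went from 13.80 to 10.67 (-3.14). In the kynurenine pathway of tryptophan breakdown, Kynu differed by -2.88 and Haao by -2.73. Dmgdh, which demethylates dimethylglycine, differed by -2.83, and Asl, the argininosuccinate lyase of arginine synthesis, by -2.64. Ass1, the enzyme before it, went from 17.11 to 15.54 (-1.57), and Miox, the inositol oxygenase, from 17.53 to 15.88 (-1.65).

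Glucose production and fructose use followed, with 9 of 11 genes at least 1 lower, 1 higher and a median of -1.91. Khk, the fructokinase, went from 13.73 to 10.25 (-3.48). Slc37a4, which moves glucose 6-phosphate into the endoplasmic reticulum, differed by -2.72, Pck1, the phosphoenolpyruvate carboxykinase, by -2.44, G6pc1, the glucose 6-phosphatase, by -2.35, and Fbp1, the fructose bisphosphatase, by -1.91. Pc, the pyruvate carboxylase that starts the pathway, differed by -2.00. Of 18 glycolytic genes 2 were higher and 2 lower by at least 1, with a median of 0.09, and that median was -0.20 when the filter used the 2 cortex arrays alone. Slc16a3, the lactate exporter, was at background in control and read 6.97 in EG, and Pfkm, the muscle-type phosphofructokinase, went from 10.68 to 9.33.

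Genes of mitochondrial energy production and mitochondrial translation had medians below 0, and a larger share of them than the 13.6% of all tested genes was at least 1 lower, though most mitochondrial ribosomal and tricarboxylic acid cycle genes did not reach 1. Cytoplasmic ribosomal protein genes stayed within 1 of control with 1 exception. Of 39 Nduf genes, which encode subunits and assembly factors of respiratory complex I, 26 were at least 1 lower and none higher, with a median of -1.18. For a broader list of 23 respiratory chain and ATP synthase genes 14 were at least 1 lower and none higher (median -1.20), led by Atp5mc1 (-1.93), Ndufa1 (-1.84) and Ndufb8 (-1.80). The 62 mitochondrial ribosomal protein genes had 20 at least 1 lower, none higher and a median of -0.76. The 73 cytoplasmic ribosomal protein genes (Rpl and Rps) had 1 at least 1 higher, none lower and a median of 0.43. In the tricarboxylic acid cycle 6 of 18 genes were at least 1 lower, among them Sdhd (-1.46), Sdhc (-1.29) and Sdha (-1.25) of succinate dehydrogenase. Among 22 genes of peroxisomes and fatty acid oxidation 11 were at least 1 lower and none higher (median -1.05). Ppara, the nuclear receptor that drives fatty acid oxidation, went from 12.34 to 8.55 (-3.79). In the outer medulla the median of the respiratory chain list was -1.47, and with phlorizin in the cortex it was -0.15.

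Genes of oxalate and glyoxylate handling are of interest in an oxalate model. Of 11 tested of the 14 listed, 6 were at least 1 lower and none higher, with a median of -1.51, which was -0.57 without the filter. Prodh2, the hydroxyproline dehydrogenase that feeds glyoxylate production, differed by -2.71 (11.47 to 8.76). Grhpr, which reduces glyoxylate to glycolate, differed by -2.16 (15.94 to 13.79), and Hoga1, the last enzyme of hydroxyproline breakdown, by -1.55 (14.22 to 12.68). Slc26a1, a basolateral sulphate and oxalate exchanger, differed by -1.63, and Slc26a7, an anion exchanger of intercalated cells, by -1.51. Adh1c, an alcohol dehydrogenase of the enzyme class that oxidises ethylene glycol, went from 14.71 to 10.33 (-4.39), and Aldh2, the mitochondrial aldehyde dehydrogenase, differed by -1.61.

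Detoxification was mixed. Gclc, the catalytic subunit of glutathione synthesis, went from 15.86 to 11.65 (-4.21 or 18.5-fold). Of 23 glutathione and NRF2 target genes 8 were lower and 2 higher by at least 1, with a median of -0.63. Gpx2, a glutathione peroxidase of epithelia, went from 7.48 to 9.86, against 10.53 to 8.22 for Gstt1, a glutathione transferase. In the Cyp2 family 9 of 12 members were at least 1 lower, none higher (median -1.61), whereas 1 of 9 Cyp4 members was (median -0.43). The Cyp2 members resemble each other, so single members are uncertain. Cyp1b1, a cytochrome P450 outside these families, went from 6.64 to 10.32.

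**Figure D3:**
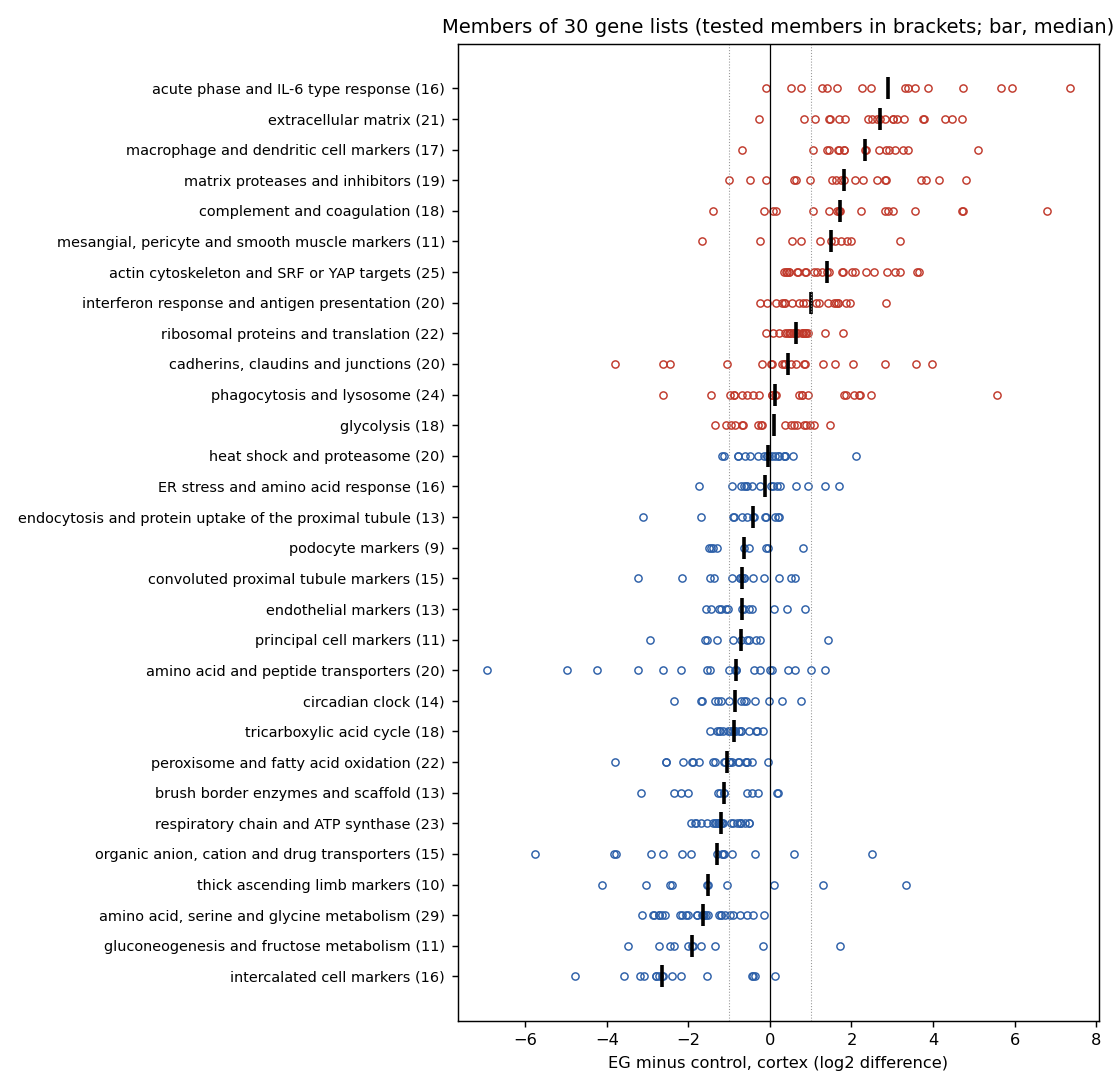
EG minus control difference in the cortex (x axis, log2) of each tested member of 30 gene lists (rows, number of tested members in brackets). Black bars are list medians, which run from -2.64 for intercalated cell markers to 2.90 for the acute phase list, and dotted lines mark a difference of 1.

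The collecting duct holds intercalated cells, which secrete acid or bicarbonate. Of 16 of their markers 12 were at least 1 lower, 11 of them at least 2 lower, and none was higher, with a median of -2.64. The median was -0.41 for EG with phlorizin minus phlorizin and -1.62 in the outer medulla. Slc4a1, the basolateral chloride-bicarbonate exchanger of acid-secreting cells, went from 12.70 to 7.93 (-4.77). Slc26a4 (pendrin), the apical exchanger of bicarbonate-secreting cells, went from 12.89 to 9.32 (-3.57). So a marker of each of these cell types was lower. The ammonia transporter Rhbg differed by -3.18, and the proton pump subunits Atp6v1c2 and Atp6v1b1 differed by -3.08 and -2.80. Hepacam2, an adhesion molecule of these cells, differed by -2.80. Kit, singled out after its value was seen, differed by 0.12. Oxgr1, the receptor for 2-oxoglutarate found on intercalated cells, went from 12.99 to 8.79 (-4.20). Slc4a1 is also a red cell gene, and Hbb, a beta globin, went from 12.04 to 7.86 in the cortex. Hbb read 10.75 with phlorizin and 11.12 with EG and phlorizin. Of 4 tested red cell transcripts, Slc4a1 and Hbb among them, 3 were at least 1 lower and none higher (median -2.62). The others were Bpgm (-1.06), the enzyme that makes bisphosphoglycerate, and Alas2, the red cell enzyme of heme synthesis, which was close to background on both arrays (6.07 to 5.96). The median of these 4 was -0.02 for EG with phlorizin minus phlorizin and -2.16 in the outer medulla. The part of red cells in the intercalated cell values was not tested.

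In the thick ascending limb 7 of 10 markers were at least 1 lower and 2 higher (median -1.53). Egf, the epidermal growth factor precursor made there, went from 16.85 to 12.74 (-4.11), and Casr, the calcium-sensing receptor, from 11.67 to 8.63 (-3.04). Cldn10, a tight junction claudin, differed by -2.46, and Umod by -2.39. Sfrp1, a secreted Wnt inhibitor, went the other way (10.33 to 13.67). Kcnj10, a basolateral potassium channel of distal segments, read 10.04 in control and 5.98 in EG (-4.06), with 9.28 for phlorizin and 9.11 for EG with phlorizin. Bsnd, the accessory subunit of basolateral chloride channels, differed by -3.11. Of 11 principal cell markers 4 were lower and 1 higher by at least 1 (median -0.70). Aqp3, a basolateral water channel, differed by -2.94, and Aqp4, another one, by 1.43.

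Tissue kallikrein, a kinin-releasing protease secreted by the connecting tubule, was among the 30 lowest genes. Klk1 went from 16.13 to 11.60 (-4.53), Klk1b3 from 16.28 to 11.88 (-4.40) and Klk1c3 from 13.84 to 9.28 (-4.57). The phlorizin and the EG plus phlorizin values were 16.21 and 15.05 for Klk1. In the outer medulla Klk1 read 6.67 in control and 6.22 in EG. These genes are closely related neighbours, so probes for one may read another and the 3 values may not be separate measurements. Their promoters show the resemblance. The 250 bases before each start in the RefSeq annotation of GRCr8 are printed 5′ to 3′, on the plus strand at chr1:103778902-103779151 for Klk1, chr1:103845397-103845646 for Klk1b3 and chr1:103807900-103808149 for Klk1c3. Capitals mark the longest run that all 3 share, of 24 bases.
Klk1: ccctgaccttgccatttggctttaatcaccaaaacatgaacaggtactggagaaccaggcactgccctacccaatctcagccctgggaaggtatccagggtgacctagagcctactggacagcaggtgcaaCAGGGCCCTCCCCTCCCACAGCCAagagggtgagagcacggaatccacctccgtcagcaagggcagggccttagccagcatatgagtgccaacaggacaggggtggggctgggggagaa
Klk1b3: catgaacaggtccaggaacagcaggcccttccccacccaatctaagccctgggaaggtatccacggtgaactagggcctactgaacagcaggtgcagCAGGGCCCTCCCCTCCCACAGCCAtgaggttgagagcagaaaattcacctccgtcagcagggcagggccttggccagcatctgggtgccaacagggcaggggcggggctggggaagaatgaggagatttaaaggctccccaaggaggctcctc
Klk1c3: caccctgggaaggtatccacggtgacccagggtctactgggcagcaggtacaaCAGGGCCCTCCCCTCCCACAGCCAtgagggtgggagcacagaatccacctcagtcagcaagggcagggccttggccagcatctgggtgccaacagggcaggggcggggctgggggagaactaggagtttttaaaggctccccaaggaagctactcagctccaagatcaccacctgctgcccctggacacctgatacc

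Genes of calcium, magnesium and phosphate transport split. Of 22 tested, 8 were lower and 4 higher by at least 1, with a median of -0.56, and 3 were higher by at least 1 when Trpv6 was counted from background. Slc34a3, a phosphate cotransporter of the proximal tubule, differed by -2.76 (14.56 to 11.81), and Pth1r, the parathyroid hormone receptor, by -2.19 (15.17 to 12.98). In contrast Slc34a2 was 107-fold higher. Trpv5, through which calcium enters cells of the connecting tubule, went from 11.35 to 13.76 (2.41), while Calb1, its cytosolic calcium buffer, went from 15.36 to 13.51 (-1.85). Trpv5 was also 1.78 higher in EG with phlorizin than in phlorizin cortex, and in the outer medulla it was at background in control and read 13.76 in EG. Cyp24a1, the vitamin D-inducible enzyme that degrades active vitamin D, went from 12.05 to 15.64 (3.59). Its phlorizin value was 13.52 and its EG plus phlorizin value 16.59, the highest of the 4. The EG arrays thus differed from their comparison arrays by similar amounts with and without phlorizin, 3.07 and 3.59.

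Markers of the cell types of the glomerulus and vessels lay in different directions. Of 9 podocyte markers 4 were at least 1 lower and none higher (median -0.64), and of 13 endothelial markers 6 were at least 1 lower and none higher (median -0.68). Podxl, a sialomucin of the podocyte surface, differed by -1.49, Nphs1, the slit diaphragm protein nephrin, by -1.41, Flt1, a VEGF receptor, by -1.56 and Kdr, the main one, by -1.44. Of 5 markers of the parietal epithelial cells that line the glomerular capsule 4 were at least 1 higher and 1 lower (median 1.59). Ncam1, an adhesion molecule, differed by 3.12 and Akap12, a kinase-anchoring protein, by 2.46, while Scin, an actin-severing protein, differed by -1.09. Smooth muscle and pericyte markers were mostly higher, with 7 of 11 at least 1 higher and 1 lower (median 1.51). Tagln, an actin-binding protein, differed by 3.20 and Myh11, the smooth muscle myosin, by -1.65.

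Tested markers of macrophages and fibroblasts were higher in nearly every case. Of 17 macrophage and dendritic cell markers 16 were at least 1 higher and none at least 1 lower, with a median of 2.34. The sum of their back-transformed values was 35376 in control and 171150 in EG (array units). Most of that sum is 1 gene, Lyz2, the brightest of the list, which went from 14.44 to 16.79 (2.35). The median values of the list were 8.58 and 10.97. Mrc1, the mannose receptor, went from 7.53 to 12.64 (5.10), Csf1r, the growth factor receptor of macrophages, from 8.05 to 10.97 and Cd68 from 8.34 to 11.41. In the families of Fc receptors and C-type lectins 13 of 20 were at least 1 higher and none lower (median 1.68). Of lymphocyte markers only 4 of 13 with a probe set passed the filter, so most T, B and NK genes could not be compared, and none of 11 neutrophil and mast cell markers passed it. Cd4 went from 11.28 to 13.81, a gene also present on rat macrophages. Of 9 fibroblast markers with a probe set 7 passed the filter, and Lum and Fap did not. All 7 tested were at least 1 higher (median 3.69), but Postn passed the filter only through its EG cortex value. In the extracellular matrix list 19 of 21 were at least 1 higher and none lower (median 2.69, and 0.66 with phlorizin). The part of these cell types in the tubular differences above was not tested.

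Proteins found in stone matrix or known to bind crystals were mostly higher. Of 14 tested genes 10 were at least 1 higher, each of them also at least 2 higher, and 2 were lower, with a median of 3.35, which was 1.15 for EG with phlorizin minus phlorizin. Clu, the extracellular chaperone clusterin, went from 13.35 to 18.22 (4.87), with 17.28 in EG with phlorizin. Cd44, a hyaluronan receptor, went from 7.41 to 11.72 (4.31), Fn1 (fibronectin) from 11.47 to 15.94 (4.46) and Mgp, the calcification inhibitor matrix Gla protein, from 13.09 to 16.63 (3.54). Anxa5, a calcium-dependent membrane binder, differed by 3.48. The Spp1 value in the outer medulla was 16.58 in control, and its difference there was 1.91 against 8.42 in the cortex. Among the proteases and inhibitors of the matrix, Timp1, an inhibitor of metalloproteinases, went from 6.86 to 11.67 (4.81), Mmp12, the macrophage elastase, from 6.36 to 10.51 (4.14) and Adamts1 from 10.58 to 14.40 (3.82). Gpnmb, a glycoprotein of lysosome-rich macrophages, differed by 5.57 and read 11.57 in EG, while the lysosome and phagocytosis list held 7 higher and 2 lower of 24 (median 0.14).

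Retinoid and vitamin genes differed gene by gene. Of 16 tested, 7 were at least 1 lower and 3 higher (median -0.99). Stra6, the receptor for retinol-binding protein, differed by -1.89 and Rbp4, retinol-binding protein itself, by -2.24, while Rdh10, which oxidises retinol to retinal, differed by 2.09. Lrat lay in the same direction as Rdh10, and its difference was 0.28 with phlorizin. Among 15 genes of water and osmolyte handling 5 were at least 1 lower (4 when Slc14a1 was counted from background) and 3 higher (median -0.34). Akr1b1, the aldose reductase that makes sorbitol, differed by 1.72 and Nfat5, the tonicity-responsive factor, by 1.51, against -1.32 for Aqp1, the water channel of the proximal tubule and thin limb.

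The acute phase response, which interleukin-6 type cytokines induce in the liver and in injured epithelium, was among the highest groups. Of 22 genes with a probe set 16 passed the filter, while Hp, Orm1, Crp, Il6, Cebpb and Hamp did not. Of the 16 tested, 13 were at least 1 higher and none lower, with a median of 2.90. The corresponding median was 1.77 for EG with phlorizin and 2.04 in the outer medulla. Lcn2, a siderophore-binding protein, belongs to this list. Il24, a cytokine of the interleukin-10 family, was at background in control and read 10.14 in EG, at least 22-fold higher. It passed the filter only through EG arrays. Osmr, the oncostatin M receptor subunit, went from 10.58 to 14.45 (3.88), and its values with phlorizin and with EG and phlorizin were 10.74 and 12.46. A2m, a broad protease inhibitor, differed by 3.38 and Socs3, the feedback inhibitor of this pathway, by 3.32, and both were chosen after their values were seen.

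The 3 fibrinogen chains, which are made mainly in the liver and assemble into the clotting protein, were higher together. Fgb went from 6.93 to 11.66 (4.73 or 26.5-fold) and Fga from 9.29 to 12.86 (3.56 or 11.8-fold). Fgg was at background in control and read 8.27 in EG, at least 6-fold higher. Fgg passed the filter only through its EG cortex value, so its being higher follows from the filter. With phlorizin the EG difference was 2.85 for Fgb and 3.08 for Fga, and in the outer medulla it was 3.87 for Fga. Fgb was at background in the control outer medulla and read 8.43 in EG, a difference of at least 2.83. The 3 genes are neighbours on chromosome 2, and their promoters are shown because the chains were higher together. Each is the 250 bases before the start in the RefSeq annotation of GRCr8, written 5′ to 3′ on the gene's strand, at chr2:170671919-170672168 (plus) for Fga, chr2:170700876-170701125 (minus) for Fgb and chr2:170652833-170653082 (plus) for Fgg. Capitals mark matches to 4 short motifs on either strand: the STAT motif TTCNNNGAA, the AP-1 motif TGANTCA, the HNF1 core GTTAAT (or ATTAAC) and TATAAA.
Fga: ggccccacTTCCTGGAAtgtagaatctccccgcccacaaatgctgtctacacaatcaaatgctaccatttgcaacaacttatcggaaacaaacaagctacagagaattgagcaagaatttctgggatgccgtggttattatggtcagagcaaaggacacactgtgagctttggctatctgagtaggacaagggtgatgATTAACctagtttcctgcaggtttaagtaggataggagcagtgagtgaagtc
Fgb: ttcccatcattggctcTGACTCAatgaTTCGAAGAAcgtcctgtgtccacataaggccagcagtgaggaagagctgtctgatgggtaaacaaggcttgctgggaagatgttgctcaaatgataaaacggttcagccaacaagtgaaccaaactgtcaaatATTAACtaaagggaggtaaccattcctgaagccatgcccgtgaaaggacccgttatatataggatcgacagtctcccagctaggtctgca
Fgg: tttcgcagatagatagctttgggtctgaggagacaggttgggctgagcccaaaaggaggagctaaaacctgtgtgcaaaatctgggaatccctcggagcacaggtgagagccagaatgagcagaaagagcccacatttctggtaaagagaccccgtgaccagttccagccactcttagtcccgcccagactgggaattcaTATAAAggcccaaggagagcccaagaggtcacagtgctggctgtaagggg
In Fga a STAT match lies at -242 to -234 and an HNF1 match at -52 to -47, counted from the start. In Fgb an AP-1 match lies at -234 to -228, a STAT match at -223 to -215 and an HNF1 match at -90 to -85. Fgg holds TATAAA at -50 to -45 and no match to the other motifs in this window. A match is a string of letters and does not show binding.

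The same motifs were counted in all 27457 promoters of that length. TGANTCA was in 6.36% of all promoters, in 9.36% of the 203 promoters matched to genes at least 2 higher in EG and in 3.32% of the 241 matched to genes at least 2 lower. GTTAAT was in 6.46% of all, 2.96% of the higher and 9.54% of the lower group. TTCNNNGAA was in 7.52%, 7.39% and 5.81%. The other 5 motifs counted, also on both strands, are given in the same order. TATAAA was in 13.1%, 12.3% and 13.7%, the E-box CACGTG in 5.79%, 2.96% and 4.15%, and the NF-kB motif in 1.28%, 2.46% and 1.24%. The HNF4 core CAAAGTCCA was in 0.331%, 0% and 1.24%, and the ERR element TCAAGGTCA in 0.368%, 0.493% and 0.415%. Among the 7761 tested genes with a promoter sequence the shares were 4.55% for TGANTCA, 4.24% for GTTAAT, 5.95% for TTCNNNGAA, 6.93% for TATAAA, 8.61% for CACGTG, 1.49% for NF-kB, 0.296% for HNF4 and 0.168% for ERR. So TATAAA was near its share of all promoters in both groups but above its share of the tested genes in both, and CACGTG was below its share of either background in both. These shares were not tested, and they rest on 19 and 8 promoters for TGANTCA and on 6 and 23 for GTTAAT. The NF-kB shares rest on only 5 and 3 promoters, those of HNF4 on 0 and 3 and those of ERR on 1 and 1.

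Complement and coagulation genes shared the direction, with 14 of 18 at least 1 higher and 1 lower (median 1.71). C4b, complement component 4, was at background in control and read 10.13, at least 21.7-fold higher, and C3, the central component, went from 6.53 to 9.55 (3.02). C4b and Fgg, both counted here, passed the filter only through their EG cortex values. Cd55, which protects cells from complement, was the lower one (-1.39) and was named after its value was seen. Interferon and antigen presentation genes had 10 of 20 at least 1 higher and none lower (median 1.02). These 20 were the ones that passed the filter of 25 with a probe set, and Isg15 and Ifit1 did not pass. Gbp2, an interferon-induced GTPase, differed by 2.85, and in the RT1 family of rat histocompatibility genes, whose members resemble each other, 9 of 18 were at least 1 higher. Of 29 chemokine and recruitment genes with a probe set 20 passed the filter, while Ccl5, Cxcl1 and Cxcl2 were among those that did not. Of the 20 tested, 7 were at least 1 higher and 1 lower (median 0.68). Ccl2, which attracts monocytes, went from 8.06 to 11.56 (3.50), and Ccl6 from 9.73 to 13.22 (3.48).

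Structural genes of the epithelium differed in a gene-specific way. Gja1, which encodes connexin 43, went from 11.32 to 15.29 (3.97), whereas Gjb2 and Gjb1, which encode connexins 26 and 32, went from 11.11 to 7.32 (-3.79) and from 10.09 to 7.48 (-2.62). Cldn4, a claudin of tight junctions, went from 7.56 to 11.15 (3.59) and differed by 2.65 with phlorizin. Cdh6, a cadherin of the developing proximal tubule, went from 11.67 to 14.50 (2.83) but differed by -0.13 with phlorizin. Of 20 junction genes 6 were higher by at least 1 and 4 lower. Cytoskeletal genes had 16 of 25 at least 1 higher and none lower (median 1.39). Tmsb10, an actin monomer-binding peptide, differed by 3.65, S100a11 by 3.60 and S100a10, the partner of annexin A2, by 3.18. Of 12 tubulin genes 7 were at least 1 higher and none lower (median 1.08), and tubulin genes resemble each other.

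A list of 23 tested transcription factors held 6 higher by at least 1 and as many lower (median -0.55). It joins factors of tubule identity with others, such as Runx1 and Cebpd. Runx1 differed by 2.28, Sox4 by 2.24, Sox11 by 1.78, Elf3 by 1.77, Cebpd by 1.65 and Pax8 by 1.25. On the other side were Lhx1 (-1.91) and Sim1 (-1.84), both factors of nephron patterning. Foxi1 (-1.55), Nr1h4 (-1.17), Esrrg (-1.15) and Tfap2b (-1.02) were also lower. Hnf4a, the master factor of the proximal tubule, differed by -0.66 and was chosen after its value was seen. Among 15 immediate early and stress factors 7 were at least 1 higher and 1 lower, with a median of 0.61 that was 1.86 when the filter used the 2 cortex arrays alone. Myc differed by 3.39, Egr2 by 2.91 and Fosl2, a subunit of AP-1, by 2.24. Of 23 cell cycle genes 12 were at least 1 higher and 1 lower (median 1.07). Mki67, a marker of dividing cells, went from 8.45 to 10.95 (2.50) and Plk1, a mitotic kinase, from 6.31 to 8.27 (1.95). Circadian clock genes had 7 of 14 at least 1 lower and none higher (median -0.86), led by Tef (-2.34), Nr1d1 (-1.69) and Npas2 (-1.67). The sources used here do not give the hour of tissue collection, so time of day and EG cannot be told apart for these genes.

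Most differences had the same sign on arrays that share none with this pair. Of the 1272 probe sets at least 1 higher, 86.1% were also higher in EG with phlorizin than with phlorizin in the cortex, against 44.7% of all tested probe sets, but only 20.9% by at least 1, where 2.43% of all tested probe sets were. In the outer medulla 89.7% were higher in EG, against 46.7% of all, and 50.7% by at least 1, where 8.59% of all were. Of the 1671 at least 1 lower, 86.7% were lower with phlorizin (55.2% of all), 8.08% by at least 1 (background 1.55%), and 79% were lower in the outer medulla (53.3% of all), 35.2% by at least 1 (background 9.68%). The median difference of the higher set was 1.54 here, 0.52 with phlorizin and 1.03 in the outer medulla, and that of the lower set was -1.43, -0.38 and -0.65. The sets were chosen on the first value of each, which is therefore the larger by choice. Zones of a treatment may come from the same animals, so the outer medulla arrays are other arrays but perhaps not other rats. Across all 13170 probe sets the correlation with the EG difference of the cortex was 0.62 for the pair with phlorizin and 0.58 for the outer medulla, as a description.

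**Figure D4:**
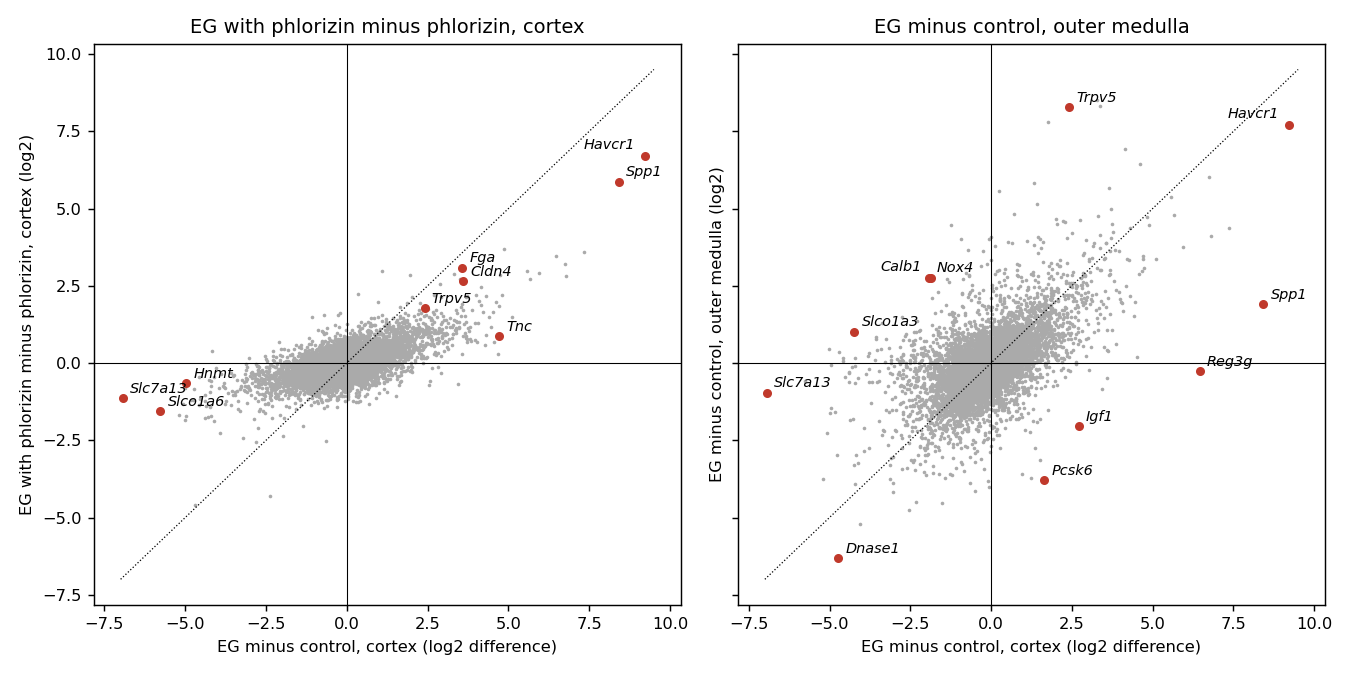
EG minus control difference in the cortex (x axis of both panels, log2) of 9315 genes against EG with phlorizin minus phlorizin in the cortex (left) and EG minus control in the outer medulla (right). The dotted line marks equal differences. In the left panel Fga and Cldn4 lie near that line, while Slc7a13 and Hnmt differ by -6.94 and -4.97 without phlorizin and by -1.14 and -0.65 with it.

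A minority of genes had opposite directions in the zones. Of the 9315 tested genes with a symbol, those passed over left out, 38 were at least 1 lower in EG cortex and at least 1 higher in EG outer medulla. The reverse held for 17. With values under background raised to it, 31 and 16 of these remained. Over all probe sets, named or not, 47 of the 1671 lower in cortex and 20 of the 1272 higher were opposite by at least 1. Nox4, the NADPH oxidase of the proximal tubule, read 15.58 in control and 13.67 in EG cortex, against 6.42 and 9.19 in the outer medulla. Calb1 read 5.45 and 8.21 there, the first at background. Pth1r read 8.89 and 9.96, and Slc5a8 6.20 and 7.67. These 4 genes were higher in the control cortex than in the control outer medulla. In the other direction Igf1, insulin-like growth factor 1, read 9.58 in control and 12.29 in EG cortex, against 15.21 and 13.16 in the outer medulla. Lpl, lipoprotein lipase, read 10.97 and 12.48 in the cortex, against 15.82 and 12.70. Aqp4 read 7.63 and 9.06, against 14.77 and 12.85. For these 3 genes the control value was higher in the outer medulla.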

How the data were processed

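The deposited series table holds log2 expression values of Clariom S rat arrays, made with RMA per the submitters' processing notes. No software version is named there, and the log2 scale was judged from the values, which run from 2.28 to 19.7. They were used as deposited. Of 24834 probe sets, 1646 for controls and other targets were dropped, and 15049 of the remaining 23188 had a symbol in the platform annotation. Unnamed probe sets made up 716 of those at least 1 apart. A probe set was kept if any of its 8 values was at least 7.54, the median of the table, and 13170 were. A gene dim in control could pass through its EG value alone, and its being higher then follows from the filter. For 10 symbols with several probe sets the one with the highest mean was used. The EG minus control difference was counted at 1 and 2 on the log2 scale, with no test, since each side has 1 array. The number of arrays limits the precision of every value.

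The comparison, the 71 gene lists and the naming rule were chosen with earlier results of these data known. Named were the 30 higher and 30 lower genes with the largest difference after values under background were raised to it, the 6 members of each list with the largest absolute difference, the 10 with the highest control value among those at least 1 apart, 10 in each direction that were opposite in the outer medulla, and Slc5a1, Slc5a2, Havcr1, Spp1 and Cyp24a1. The symbols passed over in these rankings are given above. Named genes were printed as space allowed. Promoters of 7761 of 9315 genes came from RefSeq (GRCr8). Python 3.11.15 with pandas 2.3.3, numpy 2.4.6, statsmodels 0.14.6 and matplotlib 3.10.9 was used, and the scripts were checked on simulated data. Alternatives covered the scaling, the filter, the background floor, the reference array and the threshold.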

Additional observations from a re-analysis of the deposited data

Results flagged for a closer look

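The 9315 tested genes with a symbol were compared between zones, those passed over left out. Taking the values as deposited, the EG minus control difference was at least 1 in each zone and opposite in sign for 38 genes lower in the cortex. It was so for 17 genes higher in the cortex. When values under background were raised to it, 31 and 16 of these remained. The 10 with the largest cortex difference in each direction are given. The difference between the zones was not tested, since each zone has 1 array a side. The values below are the cortex difference minus the outer medulla difference on the log2 scale. Lower in EG cortex and higher in EG outer medulla were Slco1a3 (-5.25), an organic anion transporter, Nox4 (-4.68), Acot12 (-4.66), a cytosolic acetyl-CoA hydrolase, and Calb1 (-4.61). The same held for Slc5a8 (-4.24), Slc5a10 (-3.95), Tmigd1 (-3.64), an adhesion protein of the proximal tubule, and Hhip (-3.27), an inhibitor of hedgehog ligands. Pth1r (-3.25) and Clstn2 (-3.04) completed this direction. Higher in EG cortex and lower in EG outer medulla were Pcsk6 (5.45), a proprotein convertase, Igf1 (4.77), Lpl (4.63) and Corin (4.10), the protease that activates natriuretic peptide precursors. Aqp4 (3.36), Rasgrp1 (3.30), Tmed6 (3.28), Fam43a (3.18), Cpne2 (2.78) and Aplnr (2.40), the apelin receptor, followed. Acot12, Calb1 and Clstn2 were at background in control outer medulla, and Pcsk6 and Corin in control cortex, so the sizes of these differences are not exact. Counted from background, Acot12, Clstn2 and Corin did not reach 1 in both zones.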

How the results depend on the processing

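With 1 array a side nothing can be left out, and no paired fit exists. No paired analysis was possible because the labels give 1 array per group and no shared replicate numbers. At a threshold of 2 the counts were 335 higher and 368 lower, and at 0.5 they were 2781 and 3725. The counts at 1 stayed within 1.5 times those reported under the other alternatives run, namely centring (1499 and 1377), quantile normalization (1405 and 1474), removal of a loess trend on level (1394 and 1438), a background floor (1249 and 1666), the mean of the control and phlorizin arrays as reference (1243 and 1590), no filter (1668 and 1833) and a filter on the 2 cortex arrays (1175 and 1641). None of the 51 lists and families with a median of at least 1 in size changed sign under these. Of all 118, 13 changed sign, the largest reported median among them being 0.60 in size. Dim genes are limited by background, and the precision of all is limited by the number of arrays.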

Other observations

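Further groups are given against the 10.3% of all tested genes that were at least 1 higher and the 13.6% that were at least 1 lower. Of 124 zinc finger genes (Zfp) 5 were at least 1 higher and 2 lower, and of 44 proteasome genes (Psm) 4 were higher and 1 lower. In the list of the unfolded protein and amino acid response 2 of 16 were at least 1 higher and 1 lower, with Asns, asparagine synthetase, at 1.70 and Herpud1, an endoplasmic reticulum stress gene, at -1.74. Among 14 hypoxia-induced genes none was at least 1 higher and 3 were lower, led by Ankrd37 (-1.73). Mt2A, a metallothionein, read 19.65 to 19.65, at the top of the scale, where a difference may not show, and was named after its value was seen.

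Signalling genes were split. Of 22 genes of TGF-beta, activin and BMP signalling 8 were at least 1 higher and 4 lower. Inhba, the activin A subunit, differed by 3.66 and Bmp6 by 2.47, against -2.11 for Bmp4 and -1.66 for the inhibitor Smad7. Of 14 prostaglandin genes 5 were at least 1 higher and 4 lower, with Ptgds, a prostaglandin D synthase, at -2.73, Ptgs2, the inducible cyclooxygenase, at -2.45 and Alox5ap, the 5-lipoxygenase-activating protein, at 1.65. Among 16 iron and heme genes 3 were at least 1 higher and 4 lower, with ceruloplasmin (Cp) at 3.52 and the metal importer Slc39a8 at -2.63. In the cell death list 4 of 15 were at least 1 higher and 1 lower, and Casp12 differed by 3.11.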
